A study of Homo sapiens with 16 samples.

Results

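The S100 calcium-binding protein genes described here are 10 of the 64792 gene identifiers counted in cells of DU145, a human prostate cancer line in long use. They are S100A2, S100A3, S100A4, S100A6, S100A10, S100A11, S100A13, S100A14, S100A16 and S100P. They were chosen by gene symbol, from a list drawn up with their levels in these same libraries known. Their levels and fold changes are therefore a description, and the p-values beside them are the output of a fit over all genes, not support for the choice. RNA was sequenced in 4 groups of 4 libraries: cells given lactate together with I-BET762, cells given lactate, cells given I-BET762, and control cells. I-BET762 is a small molecule that occupies the bromodomains of BET proteins, which read acetylated histones. The labels give no dose and no duration, and they do not say what the control cells received. All libraries come from 1 cell line, and the labels call the 4 replicates of a group independent without saying whether they were separate cultures, so p-values measure the spread between these libraries. The cell line field of the 4 libraries given both treatments carries other line numbers than their titles, which say DU145; the titles were trusted.

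S100 proteins are small proteins with a pair of EF-hand calcium-binding sites. They act mostly as dimers: on binding calcium most of them expose a surface that docks onto a target protein, such as an annexin, a myosin heavy chain or p53. Some also leave the cell and bind receptors such as RAGE. Most of the human genes lie in a cluster on the long arm of chromosome 1, and their levels are known to differ widely between epithelial tumours and the tissues these come from.

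Of the 10 genes, 9 lie on chromosome 1 between positions 151982915 and 153631360, all on the minus strand, and S100P lies on chromosome 4 (GRCh38, GENCODE release 29). S100A10 and S100A11 stand at one end of that stretch and the other 7 at the other. S100A3 (153547329 to 153549372) lies inside the annotated span of S100A4 (153543613 to 153550136) on the same strand, and their exons share no base. The RefSeq start of S100A4 used for its promoter below lies within 153545757 to 153546056, and S100A3 lies wholly upstream of it. The exons of S100A13 share 536 of 2216 bases with the transcript AL162258.1 on the same strand and 235 with S100A1 on the opposite strand, so the counts of S100A13 are uncertain to that extent. Pseudogenes of S100A11 had at most 1 count in any library.

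The promoters of 4 of the genes are shown, those of S100A2, S100A3 and S100A4, the 3 with the lowest fold changes among those whose libraries given both treatments were all below those given lactate alone, and that of S100A10, the gene whose libraries given lactate were all above control. Each is 300 bases of RefSeq sequence (GRCh38.p14), 250 before and 50 after the start, and capitals mark the motifs found on either strand. The motifs searched were TATAAA of the TATA box, GGGCGG bound by SP1, TGANTCA bound by AP-1, and CACGTG bound by MYC and its relatives. Also searched were ACGTG, only 1 form of the site of hypoxia-inducible factors, and GCGTG, bound by the aryl hydrocarbon receptor among others. The longer CACGTG contains ACGTG.
S100A2 promoter, chr1:153565795-153566094, minus strand: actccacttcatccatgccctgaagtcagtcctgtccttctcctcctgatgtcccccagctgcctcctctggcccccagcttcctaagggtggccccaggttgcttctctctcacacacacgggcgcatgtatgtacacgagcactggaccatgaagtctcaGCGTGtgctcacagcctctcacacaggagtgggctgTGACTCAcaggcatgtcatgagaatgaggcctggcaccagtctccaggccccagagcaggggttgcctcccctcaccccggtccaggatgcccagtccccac
S100A3 promoter, chr1:153549209-153549508, minus strand: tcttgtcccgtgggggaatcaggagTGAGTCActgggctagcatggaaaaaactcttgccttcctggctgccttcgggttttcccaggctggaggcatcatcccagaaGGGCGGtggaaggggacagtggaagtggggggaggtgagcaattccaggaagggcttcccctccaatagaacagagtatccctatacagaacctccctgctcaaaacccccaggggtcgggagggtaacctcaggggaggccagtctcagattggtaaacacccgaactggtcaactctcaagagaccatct
S100A4 promoter, chr1:153545757-153546056, minus strand: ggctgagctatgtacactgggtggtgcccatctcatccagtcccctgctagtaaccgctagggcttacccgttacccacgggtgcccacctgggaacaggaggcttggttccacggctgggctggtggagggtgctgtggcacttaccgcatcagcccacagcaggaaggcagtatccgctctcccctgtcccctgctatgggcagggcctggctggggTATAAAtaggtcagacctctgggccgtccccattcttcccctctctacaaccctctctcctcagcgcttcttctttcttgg
S100A10 promoter, chr1:151993810-151994109, minus strand: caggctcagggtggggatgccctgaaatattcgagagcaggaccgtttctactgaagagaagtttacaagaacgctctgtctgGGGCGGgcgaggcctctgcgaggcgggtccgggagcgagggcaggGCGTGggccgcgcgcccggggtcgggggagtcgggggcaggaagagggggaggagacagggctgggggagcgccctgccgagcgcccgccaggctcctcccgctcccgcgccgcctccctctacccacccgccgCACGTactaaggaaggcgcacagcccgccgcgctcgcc
All 10 genes were matched to RefSeq promoters, with 14 starts in all. TGANTCA stood in 2 of the 10, at 52 bases before the printed start of S100A2 and 225 bases before that of S100A3, and in 7.71% of 35116 promoters of this length. Another start of S100A2, with its window at chr1:153563838-153564137, had none of the motifs. TATAAA stood in 3, S100A4, S100A13 and S100P, at 28 to 31 bases before a start, and in 11.5% of all promoters. In S100A13 it stood at only 1 of 3 starts. GGGCGG stood in 6 of the 10 and in 45.0% of all promoters, GCGTG in 6 and in 36.5%, ACGTG in 2 and in 21.4%, and CACGTG in 0 and in 7.26%. A gene was counted if any of its starts had the motif, while the shares of all promoters are per start. Genes with several starts thus had more windows to match, and the counts are not directly comparable with those shares. These are matches of letters in 1 window per start and say nothing of binding.

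Total counts ran from 14358751 to 14641934 with both treatments, 10711859 to 17173584 with lactate, 13741178 to 16847884 with I-BET762 and 13300345 to 15867437 in control. The epithelial markers KRT8, KRT18, KRT19, EPCAM and CDH1 were all expressed, at summed levels of 1900 to 3350 CPM, read counts scaled to a library size common to all libraries. Of the leukocyte markers, CD3E had no count and PTPRC had 4 in all, and the summed leukocyte level was at most 2.85 CPM. HEXIM1, whose RNA is known to increase when BET proteins are inhibited, went against 2 labels: it stood at 135.1 CPM in the library labelled control 2, against 70.0 to 77.4 in the other control libraries, and at 89.6 CPM in the library labelled I-BET762 2, against 113.3 to 148.8 in the other I-BET762 libraries. The labels were kept, and values without these libraries are given for the S100 genes they changed and for the calls of other named genes that ended without them. Lactate 1 and lactate 4 stood apart as well: the rank correlation (Spearman's rho, across genes) between a gene's exon length and its expression was -0.40 and -0.42 in them, against 0.25 and 0.11 in lactate 2 and 3 and 0.037 to 0.28 in control. The same correlation with GC content in place of exon length was -0.56 to -0.30 in control. It was 0.056 to 0.44 with both treatments, -0.018 to 0.32 with lactate and -0.19 to 0.17 with I-BET762. The control libraries lay below all others in it, so every comparison with control also compares unlike GC trends. The exons of the 10 genes span 680 to 2216 bases. Bulk RNA cannot tell fewer cells expressing a gene from less RNA per cell.

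Per kilobase of exon, the levels of the 10 genes spread widely. S100A6, also called calcyclin, was the most abundant at a mean of 1224 CPM per kb over the 16 libraries, followed by S100A11 at 483, S100A10 at 269 and S100A16 at 176. S100A4 at 41.1 and S100A13 at 35.2 CPM per kb came next, and S100A2 at 6.98 and S100A3 at 6.22 after them. In that order S100A4 and S100A13 did not differ beyond their spread with both treatments, at 24.8 ± 3.46 and 25.9 ± 1.20 CPM per kb, while in control S100A4 was higher, at 42.3 ± 8.33 against 30.1 ± 3.71 (SD, n = 4 each). S100A2 and S100A3 did not differ beyond their spread with lactate, at 11.2 ± 6.86 and 10.9 ± 3.36 CPM per kb, nor in control, at 6.99 ± 2.17 and 5.20 ± 2.55 (SD, n = 4 each). With lactate the mean ± SD also overlapped between S100A11 and S100A10, S100A10 and S100A16, S100A4 and S100A13, and S100A13 and S100A2. That overlap sets aside that both genes were measured in the same libraries. Within each lactate library S100A11 was above S100A10, S100A10 above S100A16, and S100A13 above S100A2. S100A4 was above S100A13 in every lactate library but lactate 1. S100A14 had 3 to 19 counts per library and S100P had 1 to 5, too few for S100P to pass the filter on low counts. The 9 other genes passed it, and only these 9 enter the counts below.

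**Figure D1:**
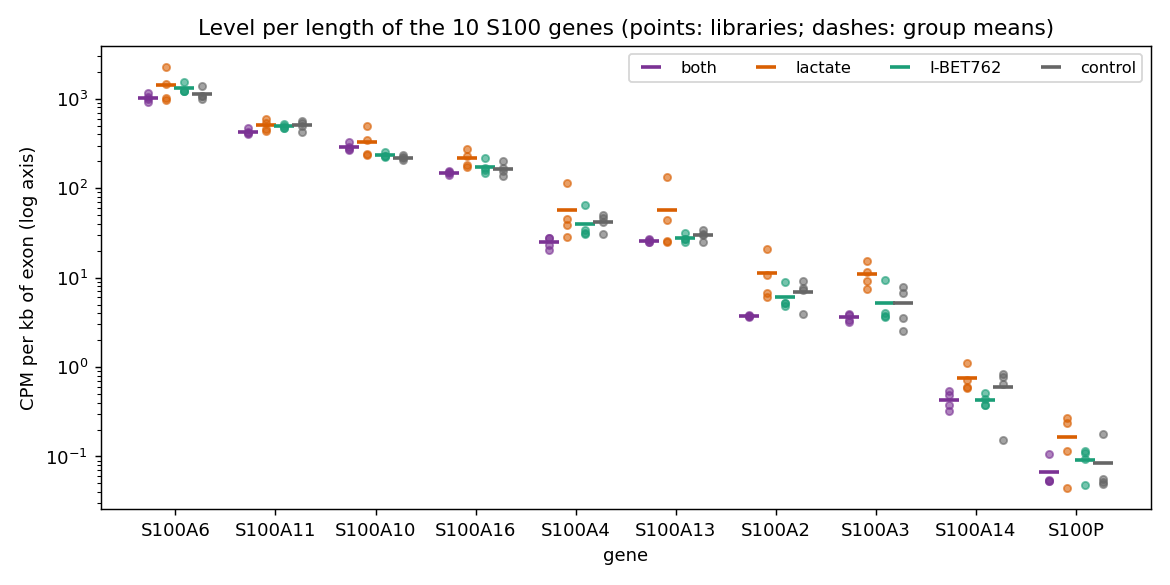
Level of the 10 S100 genes in CPM per kilobase of exon (vertical log axis), with 1 point per library and a dash at the mean of each group of 4. S100A6 stands highest at a mean of 1224 CPM per kb over the 16 libraries, and S100A14 and S100P stand lowest at 0.552 and 0.102.

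Among the genes whose proteins dock onto annexins, S100A10 was the only tested S100 gene whose lactate libraries all lay above control. S100A10, the partner of annexin A2 at the cell membrane and a receptor for plasminogen, had 500.6, 450.3, 427.6 and 417.8 CPM with both treatments and 769.7, 369.4, 366.6 and 533.2 with lactate. It had 394.4, 349.5, 349.4 and 344.2 CPM with I-BET762 and 333.9, 360.0, 319.3 and 346.7 in control. The 8 libraries that received lactate were thus all above the control libraries, and the 4 with both treatments were all above the 4 with I-BET762. S100A11, which binds annexin A1, stood within 277.7 to 317.3 CPM with both treatments, 298.6 to 403.2 with lactate, 317.6 to 358.8 with I-BET762 and 287.8 to 385.1 in control. It was the steadiest of the 9, with its 16 libraries from -0.23 to 0.30 log2 units around its mean. S100A6, which binds several annexins and the ubiquitin ligase adaptor CACYBP, reached 2199.9 CPM in lactate 1 and lay between 881.9 and 1498.9 in the others.

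S100A4 binds non-muscle myosin heavy chain and is known for its link to cell motility and metastasis. It had 28.4, 28.3, 21.1 and 24.0 CPM with both treatments, 118.6, 40.1, 29.2 and 47.0 with lactate, 31.6, 65.8, 32.3 and 35.1 with I-BET762, and 51.0, 31.6, 42.9 and 47.9 in control. Its 4 libraries with both treatments lay below all 12 others, while its lactate libraries spread around the control range.

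S100A2, a gene of basal epithelial cells whose protein binds p53, was lowest with both treatments. It had 6.05, 5.67, 5.85 and 5.87 CPM there, and 32.8, 9.49, 10.6 and 17.0 with lactate. It had 7.47, 14.1, 8.14 and 8.14 CPM with I-BET762 and 11.3, 6.22, 12.02 and 14.3 in control. The 4 libraries with both treatments lay below all 12 others, and the lowest of those 12 was the library labelled control 2. S100A14, another epithelial S100 protein, stayed between 0.197 and 1.41 CPM in all libraries.

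S100A13, which takes part in the export of FGF1 and interleukin 1 alpha from stressed cells, was set apart by 1 library. It had 60.4, 58.7, 55.4 and 54.8 CPM with both treatments, 296.6, 54.9, 57.6 and 98.8 with lactate, 55.2, 70.7, 59.2 and 59.5 with I-BET762, and 66.7, 55.9, 68.5 and 75.8 in control. Lactate 1 and lactate 4 were its highest libraries, and lactate 2 and 3 lay within or just below the control range.

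S100A3 is best known from the hair cuticle, and S100A16 is expressed in many tissues. S100A3 had 3.03, 3.67, 3.78 and 3.21 CPM with both treatments and 14.5, 8.80, 7.13 and 11.1 with lactate. It had 3.80, 9.02, 3.50 and 3.54 CPM with I-BET762 and 7.56, 2.43, 3.42 and 6.45 in control. All lactate libraries lay above all libraries with both treatments, and 3 of them above every control library. S100A16 had 266.5, 251.1, 238.5 and 255.5 CPM with both treatments, 464.8, 294.2, 311.9 and 392.0 with lactate, 287.2, 368.2, 275.1 and 253.1 with I-BET762, and 283.5, 233.3, 262.9 and 342.1 in control. S100P, a placental S100 protein that binds RAGE and ezrin, was near the detection limit in every group.

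**Figure D2:**
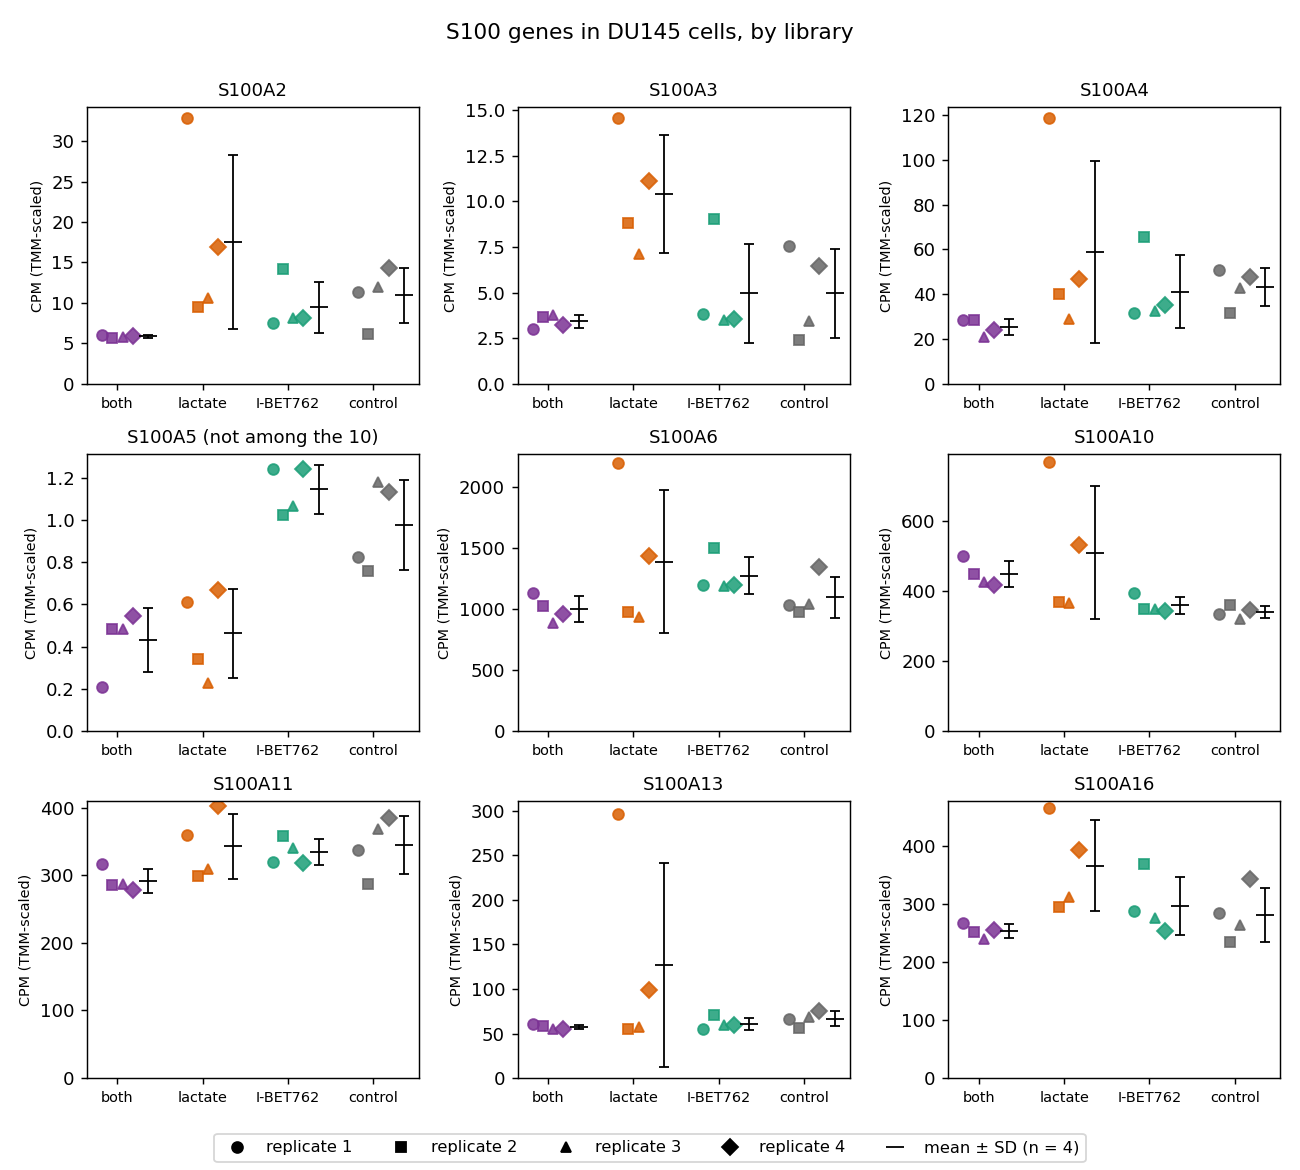
CPM on TMM-scaled library sizes of 8 of the S100 genes and of S100A5, by library (marker shape: replicate 1 to 4) in the 4 groups, with the mean ± SD of each group. S100A2 and S100A4 sit lowest with both treatments, and lactate 1 is the top library of S100A2, S100A3, S100A4, S100A6, S100A10, S100A13 and S100A16.

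The first question was whether I-BET762 altered the S100 genes in cells given lactate. All 9 genes had a fold change below 0 with both treatments against lactate, and the libraries of the groups did not overlap for 5 of them: S100A2, S100A3, S100A4, S100A14 and S100A16, where 3.78% of the 14690 genes tested were lower without overlap. The raw counts of S100A14 did overlap, at 6 to 10 with both treatments and 9 to 19 with lactate. The median log2 fold change of the 9 was -0.77, against -0.00073 over all genes tested. S100A3 stood at -1.59 (SE 0.36, unadjusted p 0.000343) and S100A2 at -1.56 (SE 0.34, unadjusted p 0.000285). S100A4 stood at -1.20 (SE 0.35), S100A13 at -1.14 (SE 0.37), S100A14 at -0.77 (SE 0.39), S100A16 at -0.53 (SE 0.15) and S100A6 at -0.47 (SE 0.21). S100A11 at -0.23 (SE 0.11) and S100A10 at -0.18 (SE 0.18) were nearest to 0.

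None of these passed edgeR's quasi-likelihood test at an adjusted p under 0.05: 0 of 9 and 0 of 14690 genes did, a share of 0%. At an unadjusted p under 0.05 there were 6 of the 9 and 2294 of all genes, or 15.6%. DESeq2 called 103 genes, S100A2 and S100A3 among them, and limma-voom called 0, with 5 of the 9 and 2082 of all genes at an unadjusted p under 0.05. Without lactate 1 the log2 fold changes were -1.39 for S100A3, -1.07 for S100A2, -0.60 for S100A4, -0.29 for S100A13, -0.16 for S100A6 and 0.09 for S100A10. Corrected for GC content and exon length they were -1.39 for S100A3, -1.31 for S100A2, -0.94 for S100A13, -0.91 for S100A4, -0.62 for S100A14, -0.38 for S100A16, -0.24 for S100A6, -0.05 for S100A11 and 0.02 for S100A10, so that S100A10 was above 0. Without the libraries labelled control 2 and I-BET762 2, which are in neither group but share the estimate of spread, S100A3 and S100A2 passed (adjusted p = 0.0146 and 0.0411, edgeR, with the same fold changes).

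**Figure D3:**
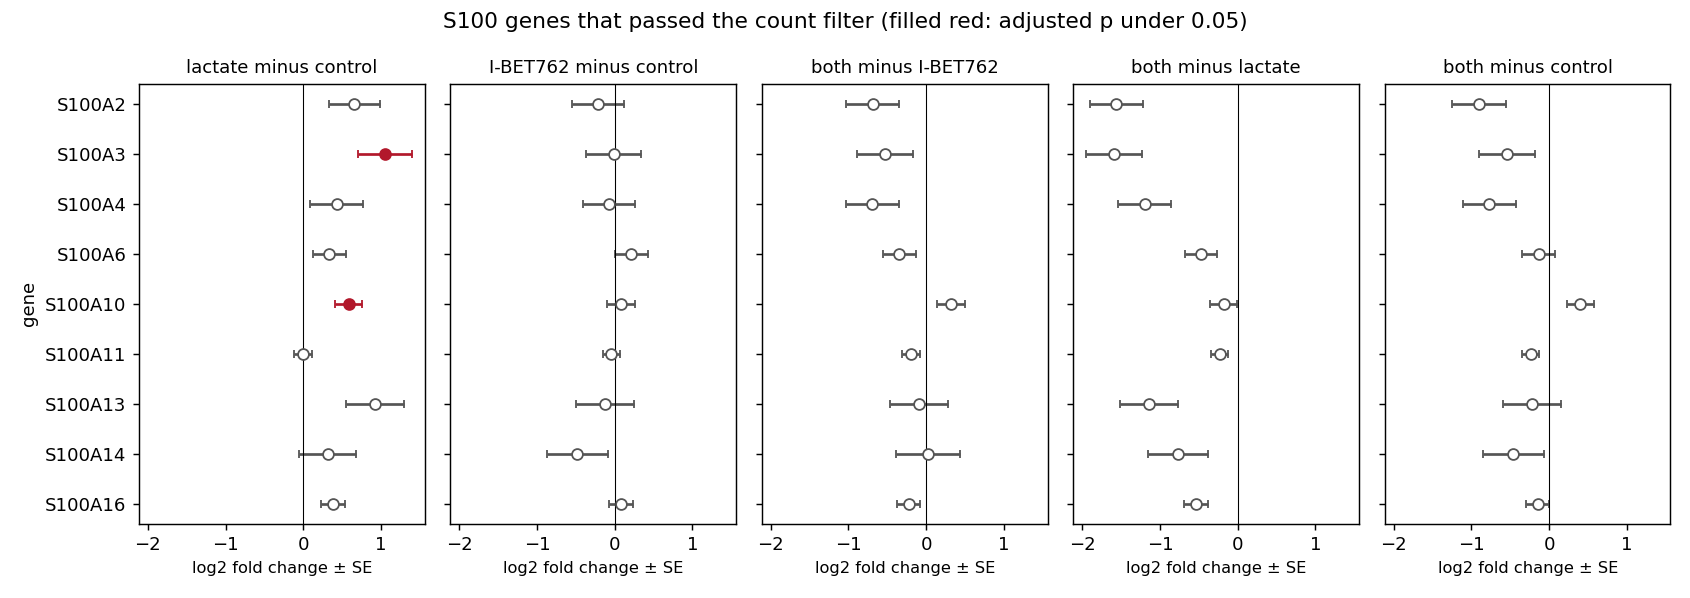
Log2 fold change ± SE of the 9 S100 genes tested, in 5 comparisons from 1 edgeR model of 16 libraries, with filled red points for an adjusted p under 0.05. All 9 lie below 0 for both treatments against lactate, and S100A3 and S100A10 are the filled points, for lactate against control.

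The second question was what lactate alone did. The lactate group was above control for S100A3 and S100A10 by the fit, at log2 fold changes of 1.05 (SE 0.35, adjusted p = 0.0377) and 0.58 (SE 0.18, adjusted p = 0.0259, edgeR's quasi-likelihood test with Benjamini-Hochberg adjustment). Over the alternatives the adjusted p ran from 0.00585 to 0.285 for S100A3 and from 0.00612 to 0.448 for S100A10. These 2 of 9 compare with 23.7% of all genes tested that passed, 13.6% upward. S100A13 stood at 0.92 (SE 0.37), S100A2 at 0.66 (SE 0.33), S100A4 at 0.43 (SE 0.34), S100A16 at 0.38 (SE 0.15), S100A6 at 0.34 (SE 0.21), S100A14 at 0.31 (SE 0.37) and S100A11 at -0.01 (SE 0.11), with adjusted p from 0.0756 to 0.971. The median of the 9 was 0.43, against 0.03 over all genes tested. S100A10 was the only one of the 9 whose libraries did not overlap between the groups, where 20% of all genes tested did not.

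Much of this level came from 1 library. The mean deviation of the 9 genes from their own averages was 1.11 log2 units in lactate 1 and 0.57 in lactate 4, against 0.017 in lactate 2 and -0.039 in lactate 3, and -0.30 to 0.27 in control. Without lactate 1 the log2 fold changes were 0.84 for S100A3 and 0.31 for S100A10, neither past the threshold, and 0.17 for S100A2, 0.07 for S100A13, 0.02 for S100A6 and -0.17 for S100A4. Corrected for GC content and exon length, S100A3 stood at 0.47 and S100A10 at 0.12, and S100A6 and S100A11 passed the threshold in the other direction at -0.37 and -0.40. Without the libraries labelled control 2 and I-BET762 2, S100A3 stood at 0.82 and passed, and S100A10 at 0.61 and did not.

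**Figure D4:**
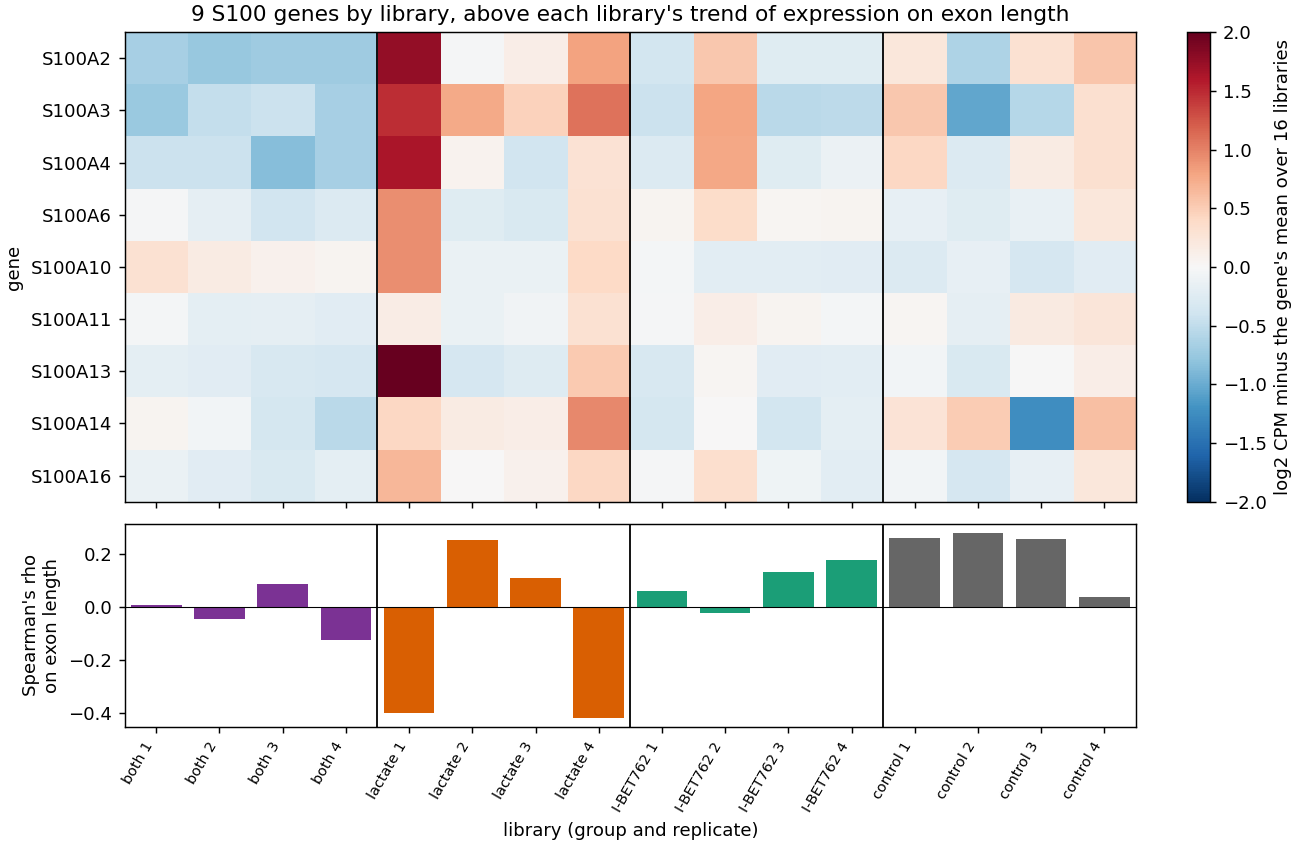
Upper panel: log2 CPM of the 9 S100 genes in each library minus the gene's mean over the 16 libraries (colour). Lower panel: the rank correlation (Spearman's rho, across genes) of expression with exon length in the same libraries. Lactate 1 and lactate 4, with mean deviations of 1.11 and 0.57, also have the lowest rho, -0.40 and -0.42.

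For I-BET762 alone, the 9 genes lay close to control. Their log2 fold changes against control ran from -0.48 for S100A14 to 0.21 for S100A6, with a median of -0.04, against -0.03 over all genes tested. In edgeR 0 of 9 passed, where 0.442% of all genes tested did, and 0 of the 9 had an unadjusted p under 0.05 in edgeR, DESeq2 or limma-voom, against 11.4% of all genes in edgeR. Without the libraries labelled control 2 and I-BET762 2, S100A3 stood at -0.68, S100A2 at -0.66 and S100A4 at -0.52, and none of the 9 passed. Leaving out lactate 1 as well was chosen after seeing the data. In that setting S100A2 passed at -0.65 (adjusted p = 0.0455, edgeR, with 0.0455 to 1.00 over its alternatives). In the model of all 16 libraries S100A3 stood at -0.02, S100A2 at -0.21 and S100A4 at -0.08. The fold changes of these 3 genes thus depended strongly on the libraries that HEXIM1 puts in doubt.

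Lactate in the presence of I-BET762 went with lower S100A2, S100A4, S100A6 and S100A11 and higher S100A10, by libraries that did not overlap between both treatments and I-BET762 alone. These 5 of 9 compare with 22.5% of all genes tested. For S100A11 the gap was slight, with the nearest libraries at 317.3 CPM with both treatments and 317.6 with I-BET762. The log2 fold changes were -0.69 (SE 0.34) for S100A2, -0.69 (SE 0.34) for S100A4, -0.35 (SE 0.21) for S100A6, -0.20 (SE 0.11) for S100A11 and 0.32 (SE 0.18) for S100A10. In edgeR 0 of 9 passed, where 4.9% of all genes did, and 0 of 9 had an unadjusted p under 0.05, where 19.6% of all genes did, with 2 in DESeq2 and 0 in limma-voom. Fitted on these 2 groups alone, S100A2, S100A4, S100A6 and S100A10 passed. The count of all genes that passed ran from 285 to 2535 over the alternatives, against 720 in the model of all 16 libraries. Without the library labelled I-BET762 2 and that labelled control 2, S100A2 stood at -0.43, S100A4 at -0.38, S100A6 at -0.26 and S100A10 at 0.31.

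Against control, both treatments together gave lower S100A2 at -0.90 (SE 0.34) and S100A4 at -0.77 (SE 0.34) and higher S100A10 at 0.40 (SE 0.18), each without overlap between the libraries. These 3 of 9 compare with 31.2% of all genes tested. In edgeR 0 of 9 passed, where 20.7% of all genes did, and 4 of the 9 had an unadjusted p under 0.05, as did 33.9% of all genes. DESeq2 called S100A2 and limma-voom none. The adjusted p was 0.072 for S100A2, 0.118 for S100A10 and 0.123 for S100A4. Over the alternatives S100A10 ran from 0.13 to 0.44. S100A6 at -0.14 ran from -0.62 to 0.0051, and S100A16 at -0.15 from -0.41 to -0.012. Corrected for GC content and exon length, 5 of the 9 passed. Without the library labelled control 2, in which S100A2 and S100A4 were lowest of the control group, S100A2 passed. Without it and I-BET762 2, S100A2 stood at -1.09 and passed, and S100A4 at -0.89 and S100A10 at 0.43 did not. A setting chosen after seeing the data left out control 2, I-BET762 2 and lactate 1. In it 5 of the 9 passed, S100A2 at -1.09, S100A4 at -0.89, S100A3 at -0.76, S100A11 at -0.31 and S100A10 at 0.43. Over the alternatives the count of all genes that passed ran from 1704 to 4832, against 3045 in the model of all 16 libraries.

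The interaction asks whether the lactate difference changed with the inhibitor. All 9 genes lay below 0, from -0.19 for S100A11 to -1.57 for S100A3, with a median of -0.68, against -0.0089 over all genes tested. In edgeR 0 of 9 and 0 of 14690 genes passed (0%), with 5 of the 9 and 894 of all genes (6.09%) at an unadjusted p under 0.05, and DESeq2 and limma-voom called 0. This contrast shares its libraries with the comparisons above and adds no independent evidence. Without lactate 1 it stood at -1.35 for S100A3 and -0.84 for S100A2, without control 2 and I-BET762 2 at -0.90 for both genes, and without the 3 libraries that stand apart at -0.71 and -0.41.

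**Figure D5:**
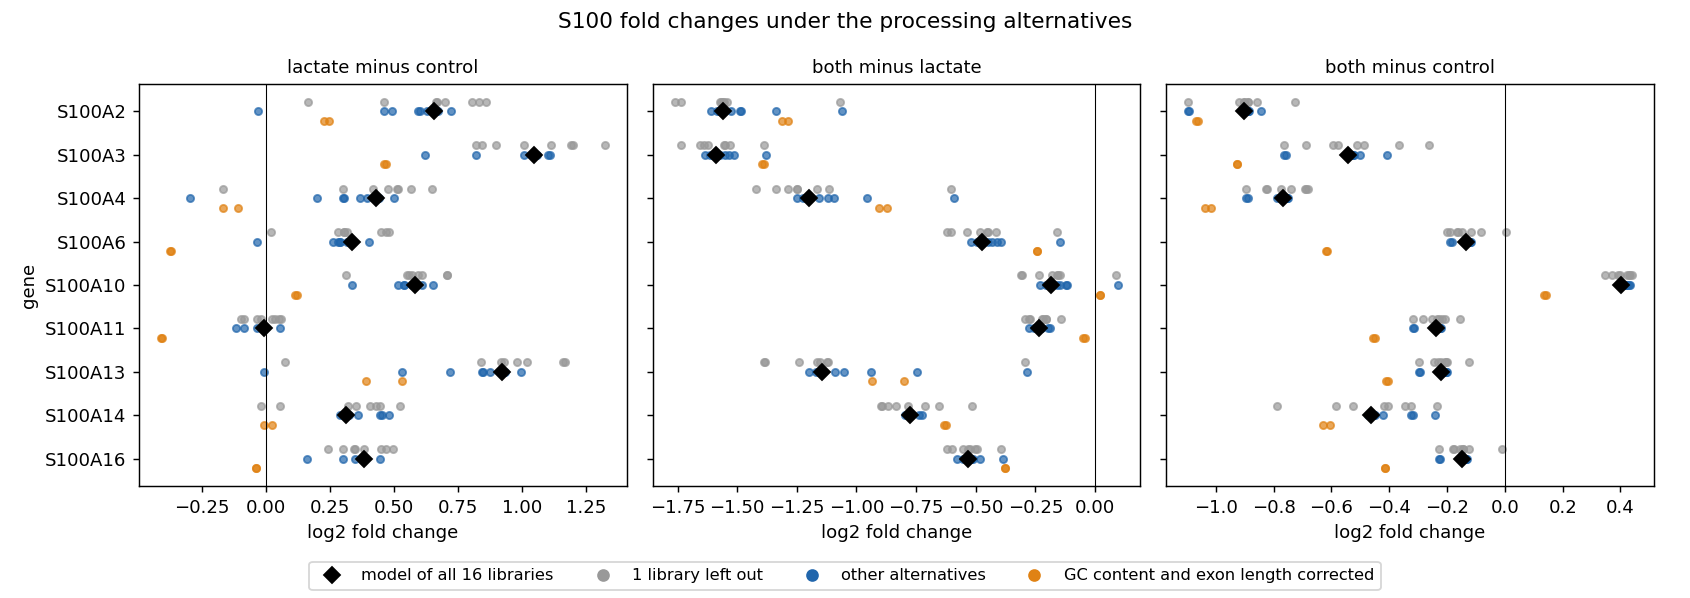
Log2 fold changes of the 9 S100 genes in 3 comparisons: the model of all 16 libraries (black diamond), with 1 library left out (grey), corrected for GC content and exon length (orange) and under the other alternatives (blue). For lactate against control 7 of the 9 cross 0 in at least 1 setting, all but S100A3 and S100A10, while for both treatments against lactate S100A10 is the only one that does.

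The 9 genes did not all follow the same profile over the 16 libraries. The root mean square difference between centred log2 levels was smallest for S100A6 and S100A16, at 0.17, and for S100A11 and S100A16, at 0.19. It was 0.26 for S100A2 and S100A4 and largest for S100A3 and S100A10, at 0.68. Among 10664 other genes averaging 5 CPM or more, the neuropeptide gene GAL was nearest to S100A2, at 0.19, and to S100A3, at 0.32. NEXN, which encodes an actin-binding protein, was nearest to S100A4, at 0.17, CIAO2A to S100A6, at 0.085, and HTATIP2 to S100A11, at 0.085. PLAUR, the urokinase receptor gene, was nearest to S100A16, at 0.089, HPRT1 to S100A10, at 0.092, the ribosomal gene RPS27A to S100A13, at 0.074, and IFRD2 to the sparse S100A14, at 0.38.

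Of the 12 other S100-related genes listed, 3 passed the filter on low counts, S100A5, S100A9 and S100PBP. S100A5, which lies between S100A6 and S100A4 and is known from olfactory neurons in rodents, had 3, 7, 7 and 8 counts with both treatments, 6, 5, 4 and 9 with lactate, 18, 14, 18 and 20 with I-BET762, and 13, 10, 18 and 16 in control. All 8 libraries that received lactate were below all 8 that did not, at 0.430 ± 0.152 CPM with both treatments and 0.463 ± 0.212 with lactate, against 1.15 ± 0.115 with I-BET762 and 0.976 ± 0.214 in control (SD, n = 4 each). It fell by 1.13 on the log2 scale with lactate against control (SE 0.34, adjusted p = 0.0248) and by 1.40 with both treatments against I-BET762 (SE 0.33, adjusted p = 0.0213, edgeR for both). It fell by 1.17 with both treatments against control (SE 0.34, adjusted p = 0.0214, edgeR). At 3 to 20 counts per library these levels are imprecise, and each of the 3 calls was lost in some alternatives. The adjusted p ran up to 0.0962 for lactate against control (5 of 19 not passed), 0.066 for both treatments against I-BET762 (4 of 19) and 0.0736 for both treatments against control (4 of 19).

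S100PBP, whose product binds S100P, had 35.5, 38.8, 31.6 and 32.0 CPM with both treatments, 29.6, 43.2, 35.0 and 31.7 with lactate, 43.6, 49.4, 39.4 and 38.2 with I-BET762, and 47.9, 43.0, 52.5 and 48.9 in control. It fell by 0.46 with lactate (SE 0.13, adjusted p = 0.0174) and by 0.48 with both treatments against control (SE 0.13, adjusted p = 0.0145, edgeR for both). Neither passed once GC content and exon length were corrected for, at -0.24 with lactate and -0.31 with both treatments. With the replicate block added to that correction, the call with both treatments did pass. The adjusted p ran up to 0.146 for lactate, where 5 of 20 alternatives did not pass, and up to 0.0662 for both treatments, where 4 of 20 did not. S100A9, a subunit of calprotectin, ranged from 0.206 to 6.74 CPM and passed in none of these comparisons. Its partner S100A8 had 3 counts in all libraries together. S100A1, S100A7, S100A7A, S100A7L2, S100A12, S100B, S100G and S100Z had 0 to 7 counts per library. Of the 7 fused-type genes such as filaggrin, which carry an S100 domain, only TCHH passed the filter, and it passed in no comparison.

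Among the genes of S100 binding partners, 1 of 9 annexin genes tested passed with lactate, ANXA6, at 0.33 (SE 0.12, adjusted p = 0.0497, edgeR), beside 13.6% of all genes that rose. Without the libraries labelled control 2 and I-BET762 2 it did not pass, at 0.32 (adjusted p = 0.117, edgeR). ANXA2, the partner of S100A10, averaged 1382 ± 154 CPM with both treatments, 1497 ± 283 with lactate, 1466 ± 150 with I-BET762 and 1549 ± 142 in control (SD, n = 4 each), and passed in no comparison. Of 20 other partners, 3 rose with lactate: MYL9, a myosin light chain, at 0.55, PLAT, tissue plasminogen activator, at 0.81, and STUB1, a ubiquitin ligase, at 0.64, a share near the 13.6% of all genes. PLAT did not pass without those 2 libraries, at 0.61. With both treatments against control, STUB1 rose by 0.69 and TPM1 (tropomyosin), FKBP4 and LIMA1 fell by 0.59, 0.41 and 0.43, where 13% of all genes rose and 7.72% fell. Corrected for GC content and exon length, STUB1 was below 0, at -0.11 with lactate and -0.04 with both treatments, MYL9 stood at 0.07, and TPM1 and LIMA1 did not pass. TPM1 did pass with the replicate block added to that correction. In the other comparisons of groups no annexin and no other partner passed.

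The receptor list held 9 genes, of which 5 were tested, and neither AGER, which encodes RAGE, nor TLR4 had a single count. BSG, the gene of basigin, which binds S100A9 and is also the chaperone of lactate transporters, averaged 709 ± 121 CPM with both treatments, 599 ± 77.1 with lactate and 703 ± 84.9 with I-BET762, against 411 ± 76.6 in control (SD, n = 4 each). It rose against control with both treatments by 0.79, with lactate by 0.54 and with I-BET762 by 0.78 (adjusted p = 0.00245, 0.0198 and 0.0473, edgeR), and these 3 comparisons share the control libraries. With I-BET762 it did not pass without the libraries labelled control 2 and I-BET762 2, at 0.77 (adjusted p = 0.075, edgeR). With GC content and exon length corrected for, BSG passed in none of the 3, at 0.26 with both treatments, 0.10 with lactate and 0.41 with I-BET762. No other receptor gene passed.

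Of 33 other EF-hand genes tested, 9 rose with lactate and 1 fell, beside 13.6% and 10.1% of all genes. RCN3, a calcium-binding protein of the endoplasmic reticulum, averaged 9.38 ± 1.95 CPM with lactate and 2.84 ± 0.997 in control (SD, n = 4 each), a log2 fold change of 1.72 (SE 0.28, adjusted p = 0.000915, edgeR). CIB2 rose by 0.77, EFHD2 by 0.84 and NUCB1 by 0.73, and the gene that fell, by 0.38, was STIM2, a calcium sensor of the endoplasmic reticulum, named after its value was seen. With both treatments against I-BET762, RCN3 rose by 1.40, EFHD1 by 1.20 and CIB2 by 0.58, and no other of the 33 passed, where 3.34% of all genes rose. With both treatments against control, 6 of 33 rose, among them RCN3 by 1.54, EFHD1 by 1.20, NUCB1 by 0.84 and EFHD2 by 0.62, and 0 fell, beside 13% and 7.72% of all genes. Corrected for GC content and exon length, RCN3 passed in all 3 comparisons, at 1.06 with lactate, 1.23 against I-BET762 and 0.91 with both treatments against control, as did EFHD1 in its 2. With that correction CIB2, EFHD2, NUCB1 and STIM2 did not pass with lactate, at 0.22, 0.28, 0.34 and -0.19. NUCB1 did pass with lactate when the replicate block was added to it.

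Within 500 kb of the 9 S100 genes on chromosome 1 lay 117 other genes, of which 34 were tested. With lactate 6 of them rose and 4 fell, beside 13.6% and 10.1% of all genes. CREB3L4, a transcription factor of the endoplasmic reticulum, rose by 0.65 and TDRKH-AS1 by 0.88, and SNX27, an endosomal sorting protein, fell by 0.53. With both treatments against I-BET762, S100A5 was the only neighbour that passed, and with I-BET762 against control there was none. With both treatments against control 3 rose, among them SNAPIN by 0.49, and 2 fell, S100A5 and C2CD4D-AS1, the second by 0.87, beside 13% and 7.72% of all genes. After the same correction CREB3L4 and SNX27 passed with lactate, at 0.48 and -0.49, and TDRKH-AS1, SNAPIN and, with both treatments, C2CD4D-AS1 did not. C2CD4D-AS1 did pass there with the replicate block added.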

How the data were processed

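Expression was measured by RNA sequencing in 16 libraries of DU145 cells. Per the labels' protocols, 800 ng of RNA per library was selected for polyadenylated RNA, prepared with a strand-marking kit and read as single ends of 75 bp. Raw read counts for each Ensembl gene were deposited by the authors. The submitters' processing notes name STAR 2.6.1c, DESeq, and the builds GRCh38.p12 and hg38. The counting program and its strand setting were not given in the sources used here. GENCODE release 29 named 58735 of the 64792 identifiers, and all 142 list entries were matched.

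Genes were kept by filterByExpr (minimum count 10, minimum total 15), which left 14690 genes holding at least 99.82% of each library's counts. An edgeR 4.0.16 quasi-likelihood model (R 4.3.3, TMM scaling) held all 16 libraries, with a mean per group, 12 residual degrees of freedom and a common dispersion equal to a biological coefficient of variation of 0.183. Tests were two-sided, with Benjamini-Hochberg adjustment over all genes tested and a threshold of 0.05. CPM values use TMM-scaled library sizes. On simulated counts for lactate against control over the 14690 genes, the fit recovered 24 of 100 genes changed 1.5-fold and 78 of 100 changed 2-fold, with 5 false among 107 calls. Only these genes were changed in the simulation, while 3486 passed in the real libraries. The false share was not tested under the unlike GC trends, outlying libraries and doubtful labels seen there, and need not carry over.

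The S100 genes and the gene lists were chosen with earlier results of these data known. From the lists of annexins, other partners, receptors and EF-hand genes, up to 4 tested genes with the smallest p were named per comparison described, and likewise for neighbours within 500 kb. ANXA2, S100A8, AGER, TLR4 and single markers were named besides, as partners or defining genes. The gene of like profile is the one with the smallest root mean square difference of centred log2 CPM (prior count 2). Same-numbered replicates did not deviate together in every pair, so the numbers were not used as a block in the main model. Their correlations ran from -0.26 to 0.42 over 24 pairs, of which 16 were over 0.1. The lowest was between control 2 and I-BET762 2, the libraries that HEXIM1 puts in doubt. Some genes did split by number in every group. TCHH had 9.14 to 19.4 CPM in replicates 1 and 2 and 2.55 to 5.91 in replicates 3 and 4, and S100A9 was lower in replicates 1 and 2 of each group. S100A10 had no such split in control. The main model leaves this spread within the groups, and its cause was not tested. No pair of libraries of a group agreed within sampling noise. Alternatives were RLE and total-count scaling, no filter, a minimum mean of 5 CPM, a replicate block, DESeq2 1.42.0, limma-voom (limma 3.58.1), the compared groups alone, correction for GC content and exon length, and libraries left out; leaving out control 2, I-BET762 2 and lactate 1 together was chosen after seeing the data.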

Additional observations from a re-analysis of the deposited data

Results flagged for a closer look

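In 36 sets of 4 replicates (9 genes in 4 groups), 5 had a library far from the other 3 by Dixon's test, in which the gap to the nearest library is set against the range of all 4. Chance alone would mark about 1 in 20 such sets. The library labelled I-BET762 2 accounted for 4 of them: S100A2 at 14.1 CPM (others 7.47 to 8.14), S100A3 at 9.02 (at most 3.80), S100A4 at 65.8 (31.6 to 35.1) and S100A6 at 1499 (1191 to 1201). HEXIM1 in that library, at 89.6 CPM, was also below the others of its group. The last was S100A10 in I-BET762 1, at 394.4 CPM, against 344.2 to 349.5 in the other I-BET762 libraries.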

How the results depend on the processing

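Of 1366 alternative values for single S100 genes, 1217 kept their direction and their side of the threshold, 58 changed direction, 52 passed the threshold anew and 39 no longer passed it; the causes were not tested. For lactate against control, where 2 S100 genes passed, there were 0 with these groups fitted alone, 0 without control 2, I-BET762 2 and lactate 1, 1 (S100A3) without control 2 and I-BET762 2, and 1 (S100A11) after GC and length correction with the replicate block. After that correction without the block 2 passed, S100A6 and S100A11, both below 0. With 1 library left out the count ran from 0 to 5, and it was 0 without control 3, lactate 1 or lactate 4, 1 without control 1 (S100A3) or control 2 (S100A10), 4 without lactate 3 and 5 without lactate 2.

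For I-BET762 against control 1 passed without the 3 libraries. For both treatments against I-BET762 4 passed with the groups alone and 1 (S100A6) after GC and length correction, with or without the block. For both treatments against lactate 4 passed with no filter (S100A2, S100A3, S100A4 and S100A13), and 2 (S100A2 and S100A3) with DESeq2, without control 2 and I-BET762 2, and without the 3 libraries. For both treatments against control 2 passed with no filter, 1 with DESeq2, 3 with the groups alone, 5 after GC and length correction with or without the block, 1 without control 2 and I-BET762 2, 5 without the 3 libraries, and 0 to 1 with 1 library left out, 1 being without control 2. For the interaction 0 passed throughout. The replicate block alone left the 6 counts at 2, 0, 0, 0, 0 and 0.

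Directions that changed, in log2 units, were these. For lactate against control, after GC and length correction S100A4 was -0.11, S100A6 -0.37, S100A14 -0.0055 and S100A16 -0.039, with the block added S100A4 was -0.17, S100A6 -0.38 and S100A16 -0.039, without the 3 libraries S100A2 was -0.031, S100A4 -0.30, S100A6 -0.037 and S100A13 -0.0085, and with a minimum mean of 5 CPM S100A11 was 0.056. For I-BET762 against control, after correction S100A6 was -0.15, S100A10 -0.093 and S100A16 -0.10, with the block added -0.14, -0.097 and -0.099, S100A16 was -0.11 without the 3 libraries and -0.12 without control 2 and I-BET762 2, and S100A3 was 0.0041 with the groups alone and 0.00024 with the replicate block. For both treatments against I-BET762 S100A14 was -0.040 after correction and -0.047 with the block added. For both treatments against lactate S100A10 was 0.019 after correction, 0.022 with the block added and 0.097 without the 3 libraries. For the interaction S100A10 and S100A11 were 0.11 and 0.15 after correction, and 0.12 and 0.16 with the block added.

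With 1 library left out, lactate against control ran from -0.17 to 0.65 for S100A4, -0.096 to 0.058 for S100A11 and -0.017 to 0.52 for S100A14. I-BET762 against control ran from -0.46 to 0.26 for S100A3, -0.39 to 0.032 for S100A4, -0.12 to 0.052 for S100A11 and -0.045 to 0.22 for S100A16. Both treatments against I-BET762 ran from -0.10 to 0.14 for S100A14 and -0.074 to 0.72 for S100A9. Both against lactate ran from -0.31 to 0.087 for S100A10, and both against control from -0.20 to 0.0051 for S100A6. The interaction ran from -0.39 to 0.023 for S100A10 and -0.51 to 0.037 for S100A14.

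Over all genes, the count for lactate against control fell to 889 with the groups alone, 1839 without control 3 and 2102 without lactate 4, against 3486. For I-BET762 against control it ran from 0 to 981, against 65. For both treatments against I-BET762 it ran from 285 to 2535 (720), for both against lactate from 0 to 197 (0), for both against control from 1704 to 4832 (3045), and for the interaction from 0 to 3 (0). S100A14 and S100P, at 1 to 19 counts per library, are limited by depth. S100A14 has no value under that minimum mean, and the groups alone gave it none in the comparisons where it failed the filter there. Of 35 calls of the other genes named in the report, 31 passed without control 2 and I-BET762 2, the exceptions being ANXA6, PLAT, BSG with I-BET762 and CIB2 with both treatments against control. After GC and length correction 15 passed, and 5 passed in every alternative, those of RCN3 and, with both treatments against control, NUCB1 and EFHD1.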
